A study of Homo sapiens with 6 samples.

Results

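Liver cancer stem and progenitor markers are genes used to recognise tumor cells that resemble the progenitors of the liver. The group described here had 10 genes: *PROM1* (encoding CD133), *CD24*, *CD44*, *EPCAM*, *KRT19*, *SOX9*, *ALDH1A1*, *THY1*, *ANPEP* (CD13) and *ICAM1* (CD54). Members were taken by gene symbol, and 9 of the 10 had a row among the 20026 genes measured, while *THY1* was not analysed here. The genes were selected on earlier results of these same libraries, with their counts and their differences between groups known. Their values are therefore a description with no p-value for any marker, and counts of markers called stand only beside the share of all genes called.

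In the liver, a small population of progenitor cells at the ends of the bile ducts can give rise to both hepatocytes and cholangiocytes, the epithelial cells of the bile ducts. In hepatocellular carcinoma, cells that carry surface proteins of these progenitors, such as CD133, EpCAM, CD24 and CD13, have been studied for self-renewal, tumor formation and drug resistance. The set mixes kinds of protein: membrane glycoproteins (CD133, CD24, CD44, EpCAM, CD90, ICAM-1), a cell surface peptidase (CD13), an intermediate filament protein (keratin 19), a transcription factor (SOX9) and an enzyme of retinoic acid synthesis (ALDH1A1).

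The study knocked out miR-23a or miR-27a, microRNAs that lie close together, in HepG2, a human liver cancer cell line, to ask which genes respond to each. RNA-seq was done on 6 libraries in 3 groups of 2, for which the labels name total RNA and the methods an mRNA library kit. Scr libraries came from wild-type HepG2 cells that received the empty PX458 vector, which carries Cas9 and GFP. The methods also speak of selected colonies for the scramble cells. miR-23a KO and miR-27a KO libraries came from HepG2 colonies edited by CRISPR/Cas9 with paired guides around the miRNA and grown after single-cell sorting. For the study's knockout clones, the methods and genotyping give homozygous deletions in both miR-23a KO clones and in miR-27a KO1, while miR-27a KO2 was heterozygous, with a deletion and an insertion, and the labels do not tie a library to a clone. No drug or time point is given for any group, and the labels call the cells of all 6 libraries triple-negative liver cancer cells. The labels do not say whether the libraries of a group come from separate colonies or cultures. The p-values thus measure only the spread between these samples, which may be technical. A difference between colonies and an effect of the lost miRNA cannot be told apart with these groups. The genes of the edited miRNAs were not analysed here, so the groups rest on the labels. By the paper's qPCR, its miR-23a KO clones also had less miR-27a-3p and less miR-24-3p, from the same cluster. Its miR-27a KO clones also had less miR-24-3p and slightly more miR-23a-3p. A group may therefore differ from Scr in more than the miRNA it is named for.

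The columns of the table are named FPKM, and their values were taken for expected counts. The Scr libraries held 14891239 and 14405250 counts in total, against 16515261 and 15930779 in miR-23a KO, with 15850589 and 15947308 in miR-27a KO. Levels are given as CPM, the usual depth-scaled count, with library sizes scaled by TMM. The precision of each group followed from the distance between its libraries. In Scr, 6.14% of genes lay over 2-fold apart between the libraries, compared to 46.8% for miR-23a KO and 1.20% for miR-27a KO. The miR-23a KO libraries thus stood far apart from each other, and values of that group are given for each replicate below.

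The mature miRNAs are shown because their seeds, bases 2 to 8 in capitals, define the sites sought in the markers. miR-23a-3p lies at chr19:13836595-13836615 and miR-27a-3p at chr19:13836447-13836467, both on the minus strand (RefSeq, GRCh38.p14). miR-23b-3p at chr9:95085265-95085287 and miR-27b-3p at chr9:95085505-95085525, on the plus strand, have the same seeds and were not edited.
hsa-miR-23a-3p: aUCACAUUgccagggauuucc
hsa-miR-23b-3p: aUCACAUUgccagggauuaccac
hsa-miR-27a-3p: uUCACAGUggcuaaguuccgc
hsa-miR-27b-3p: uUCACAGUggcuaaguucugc

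The markers differed in separate ways in the knockouts. In miR-27a KO, *PROM1* had no counts, while *EPCAM* and *ALDH1A1* stood at 2.51 and 2.59 times their mean CPM in Scr cells. In miR-23a KO, *CD24* had 15 and 47 counts, *SOX9* was lower in both libraries, and *PROM1* was above both Scr libraries in CPM, by little in replicate 1. *KRT19*, *ANPEP* and *ICAM1* lay closer together in the 3 groups, and *CD44* was near 0 in all 6 libraries. These libraries are bulk RNA, in which fewer cells carrying a marker and less of its RNA per cell cannot be told apart.

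**Figure D1:**
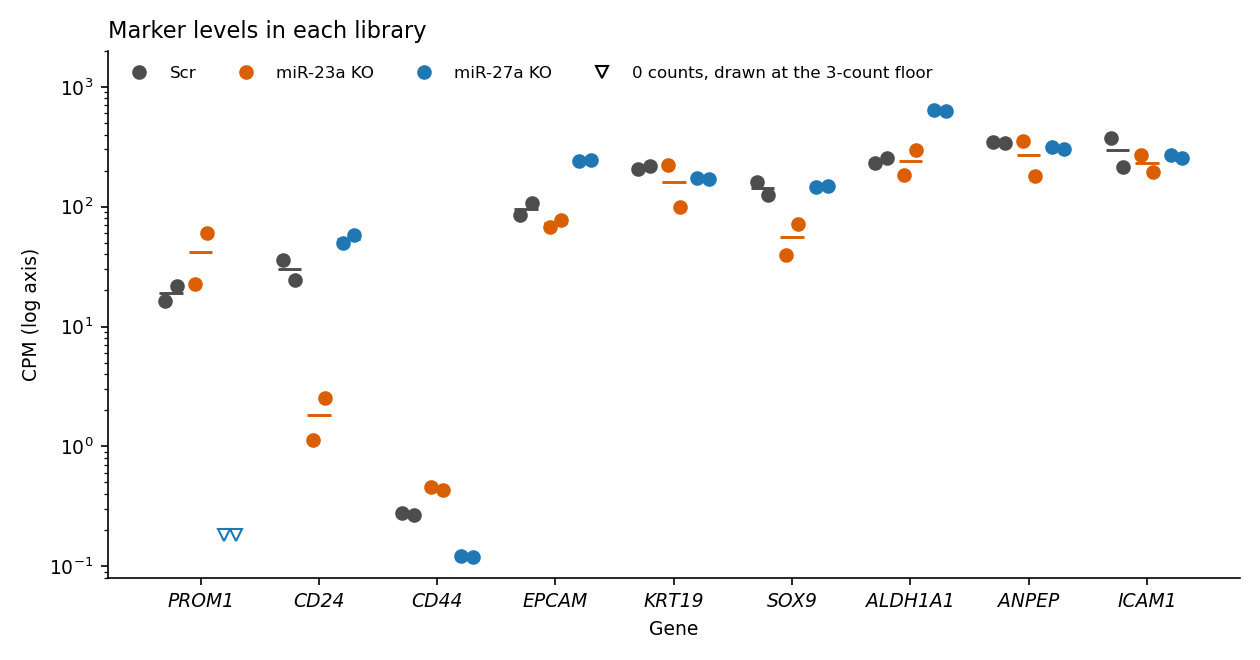
CPM of the 9 markers with a row in each of the 6 libraries, on a log axis. Bars are means, open triangles are 0 counts drawn at the level of 3 counts, *PROM1* is at 0 in both miR-27a KO libraries and *CD24* is at 1.14 and 2.53 CPM in miR-23a KO.

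Each pair of groups was compared over the whole table by edgeR's quasi-likelihood test, and calls needed a fold change over 1.5 and a Benjamini-Hochberg adjusted p under 0.05. Of the 9 markers, 8 passed the filter on low counts in each comparison, and *CD44* did not. In miR-27a KO compared to Scr, 3 of the 8 were called, 2 higher and 1 lower. This stood beside 1418 of 13820 genes, or 10.3%, with 487 higher and 931 lower. With 1 library left out, its group has no spread of its own, and that of the other group stands in. Counts of calls from such fits, here and below, follow that spread and do not show more or fewer differences. Without Scr replicate 1 or 2, the genes called were 2270 and 3716, and without miR-27a KO replicate 1 or 2 they were 424 and 334. The markers called were 4, 4, 3 and 3 in these fits. A fit of all 6 libraries, whose groups then share 1 estimate of the spread, called 64 genes and 1 marker, and an adjusted p under 0.001 left 4 genes and 0 markers.

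In miR-23a KO compared to Scr, edgeR's quasi-likelihood test called 0 of the 8 markers, beside 0 of 13786 genes (0%). There, 118 higher and 214 lower genes had an unadjusted p under 0.05. DESeq2 called 63 genes and 1 marker, and limma called 0. Between miR-23a KO and miR-27a KO, edgeR called 0 of the 8 markers and 0 of 13841 genes (0%), where 645 genes were higher and 562 lower at an unadjusted p under 0.05. DESeq2 called 477 genes and 3 markers there, and limma 21 genes and 1 marker. In counts simulated with the fitted spread, edgeR recovered 0 of 200 genes changed 4-fold between the knockouts. It recovered 18 of 200 in miR-23a KO against Scr, and 195 of 200, with 24 false calls, in miR-27a KO against Scr. The 0 calls in comparisons with miR-23a KO therefore do not show that the groups were alike. Without miR-23a KO replicate 1 or 2, edgeR called 594 and 2630 genes and 3 and 2 markers against Scr, and 4907 and 7303 genes and 7 and 5 markers against miR-27a KO. Without Scr replicate 1 or 2 it called 4 and 9 genes and 0 markers against Scr, and without miR-27a KO replicate 1 or 2 it called 76 and 72 genes and 2 markers between the knockouts.

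The median log2 fold change of the 8 markers was -0.32 in miR-23a KO against Scr, where that of all genes tested was 0.16. It was -0.06 beside 0.01 in miR-27a KO against Scr, and -0.79 beside 0.11 in miR-23a KO against miR-27a KO. The medians were the same with *PROM1* at its bound. Without miR-23a KO replicate 1 the median against Scr was -0.72, and in miR-27a KO it was 0.28 without Scr replicate 1 and 0.05 after correction for GC content and length. Between the knockouts the median was -0.21 without the filter on low counts, where *CD44* was included. The first and second comparison share the Scr libraries.

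To compare markers with each other, counts were divided by the length of the longest annotated transcript. They were then rescaled to the same total in each library, without TMM. The TMM factors used for CPM were 0.796 and 1.17 in miR-23a KO replicates 1 and 2. The libraries can therefore stand in a different order for the same gene in CPM and after length scaling. On this length-scaled level, Scr cells had *KRT19* at 381 ± 33.9 (SD, n = 2), *ALDH1A1* at 290 ± 34.6, *ANPEP* at 234 ± 9.84, *ICAM1* at 224 ± 77.5, *EPCAM* at 140 ± 29.1, *SOX9* at 90.1 ± 11.7, *CD24* at 29.6 ± 6.52 and *PROM1* at 10.9 ± 2.75. *CD44* was last at 0.119. In Scr, *KRT19* exceeded 97.5% of the genes detected, while *PROM1* exceeded 55.4%. The range of mean ± SD of *ICAM1* overlapped those of *ALDH1A1*, *ANPEP* and *EPCAM*, and with the union of exons as length *ANPEP* and *ICAM1* changed places.

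The order differed in the knockouts. In miR-27a KO, *ALDH1A1* came first at 806 ± 8.82 and *EPCAM* next at 377 ± 5.94, ahead of *KRT19* at 332 ± 4.38, and *PROM1* was last. *ANPEP* and *ICAM1*, at 224 ± 5.31 and 217 ± 8.72, again lay within their SD. In miR-23a KO most of the order was not settled. *ALDH1A1* at 305 ± 210 overlapped *KRT19* at 259 ± 41.2, *ICAM1* at 171 ± 31.1, *ANPEP* at 166 ± 10.2 and *EPCAM* at 108 ± 52.3, of which the last 3 also overlapped each other. *SOX9* at 38.3 ± 28.7 overlapped *EPCAM* and *PROM1*, and *PROM1* at 27.1 ± 25.1 overlapped *CD24* at 2.03 ± 1.72, which stood next to last.

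*PROM1* (gene 8842) encodes prominin-1, or CD133, a pentaspan protein of membrane protrusions. It lies on chromosome 4 of GRCh38, from 15963076 to 16084378 on the minus strand (GENCODE release 29). Its counts were 234 and 321 in Scr, with 299 and 1124 in miR-23a KO, against 0 and 0 in miR-27a KO. In CPM this was 16.3 and 21.7 in Scr, and 22.7 and 60.5 in miR-23a KO. Both miR-27a KO libraries lay below both Scr libraries, and miR-23a KO replicate 1 lay just above the higher Scr library in CPM, with replicate 2 far above it. On the length-scaled level, replicate 1 at 9.33 lay between the Scr libraries, at 8.98 and 12.9.

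Against a floor of 3 counts per library, or 0.181 CPM, *PROM1* was at least 105-fold lower in miR-27a KO than in Scr. The bound was 120-fold without Scr replicate 1 and 89.8-fold without Scr replicate 2. Floors and counting intervals cover counting error only. The standard error (SE) was taken as the size of the log2 fold change over the square root of the quasi-likelihood F statistic. In miR-23a KO the log2 fold change against Scr was 1.23 (SE 0.61). It was 0.26 when miR-23a KO replicate 2 was left out and 1.71 for replicate 1. Between the knockouts, the miR-23a KO libraries had at least 230-fold more *PROM1*, and at least 126-fold without miR-23a KO replicate 2 or 334-fold without replicate 1.

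Other genes were also at 0 in both libraries of a group. Of 8554 genes with at least 100 counts in each of the other 4 libraries, 6 were at 0 in both miR-27a KO libraries: *LGI1*, *LYVE1*, *NRP2*, *PAQR9*, *PCOLCE2* and *PROM1*. For Scr the same count was 0 of 8572 genes, and for miR-23a KO 0 of 9040. The minimum of 100 counts was chosen after the values were seen, that of *PROM1* included, as were *PAQR9* and *PCOLCE2* as names.

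Neighbours of *PROM1* on chromosome 4, chosen after the values were seen as the nearest 2 genes on each side with at least 5 CPM, are given beside it. In miR-27a KO against Scr, *FBXL5* had a log2 fold change of 0.16 (SE 0.11), *FAM200B* 0.21 (0.22), *TAPT1* -0.03 (0.27) and *QDPR* 0.07 (0.11). By edgeR quasi-likelihood with Benjamini-Hochberg adjustment, adjusted p of these 4 lay between 0.382 and 0.955 in that comparison, with 0 called.

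The *PROM1* start farthest upstream in RefSeq (chr4:16083974-16084273, minus strand, GRCh38.p14) is printed, since this marker had the widest range over the groups. It covers 250 bases before the start and 50 after it. Promoters were searched on both strands for motifs chosen after the sequences were seen. Of 35116 RefSeq promoters, 34.6% hold the CCAAT box (CCAAT), 6.88% the letters GTTAAT, 11.5% the TATA box (TATAAA), 45% the GC box (GGGCGG), 1.77% the octamer (ATGCAAAT) and 0.461% the NF-kB motif (GGAAATTCC). Capitals mark a match, here a CCAAT box that starts 53 bases before the start.
PROM1 promoter: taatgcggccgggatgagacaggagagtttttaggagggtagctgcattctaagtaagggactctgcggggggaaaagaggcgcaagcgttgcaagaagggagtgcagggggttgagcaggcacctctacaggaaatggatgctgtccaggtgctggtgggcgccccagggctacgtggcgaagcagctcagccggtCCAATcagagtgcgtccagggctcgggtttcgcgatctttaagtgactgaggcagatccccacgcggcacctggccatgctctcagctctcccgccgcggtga

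Seed sites were exact matches of 7 bases to AATGTGA (miR-23a-3p) or ACTGTGA (miR-27a-3p) in annotated 3′UTRs. Of 19417 genes with a 3′UTR in GENCODE release 29, 22.4% held the first and 19.7% the second. *PROM1* had a miR-23a-3p site in 6 of its 9 annotated 3′UTRs, at position 346 after the stop codon of a 3′UTR of 1167 bases (chr4:15969041-15969047), and a miR-27a-3p site in 1 of 9, at position 1368 of 1432 (chr4:16003325-16003331). The marker with 0 counts in miR-27a KO thus holds a miR-27a-3p site in 1 annotated 3′UTR, and a match says only that these letters are there. Capitals mark the sites, with flanks to 30 bases.
PROM1 miR-23a-3p site: aaaactctatcaAATGTGAtggctagattc
PROM1 miR-27a-3p site: gaagtaagccaaACTGTGAagaaatcatca

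*CD24* (gene 100133941) encodes a small, heavily glycosylated protein anchored in the membrane by a lipid, and spans 106969831 to 106975627 of chromosome 6 (GRCh38, minus strand). Libraries of Scr had 515 and 360 counts, against 15 and 47 in miR-23a KO, with 829 and 963 in miR-27a KO, or 35.8 and 24.3, 1.14 and 2.53, and 50.2 and 58.0 CPM. The groups did not overlap: miR-23a KO was lowest, Scr between and miR-27a KO highest. *CD24* has processed pseudogenes elsewhere in the genome, so the assignment of its reads is uncertain.

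*CD24* had a log2 fold change of -3.92 (SE 0.67) in miR-23a KO against Scr, and -4.71 without miR-23a KO replicate 2. In miR-27a KO against Scr it was 0.84 (SE 0.21). The value there was 1.16 without Scr replicate 1 and 0.60 without Scr replicate 2. Between the knockouts it was -4.85 (SE 0.54), the widest difference of a marker with counts in all 6 libraries. Nearby genes differed less. *QRSL1*, *RTN4IP1*, *C6orf203* and *BEND3*, the nearest on its sides, chosen after the values were seen, had log2 fold changes between -0.33 and 0.41 in miR-23a KO against Scr.

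The *CD24* start farthest upstream (chr6:106975578-106975877, minus strand, RefSeq, GRCh38.p14) is shown beside that of *PROM1*, since these markers had the widest ranges over the libraries. Capitals mark a GC box 99 bases before the start. No site of either miRNA was found in the 7 annotated 3′UTRs of *CD24*.
CD24 promoter: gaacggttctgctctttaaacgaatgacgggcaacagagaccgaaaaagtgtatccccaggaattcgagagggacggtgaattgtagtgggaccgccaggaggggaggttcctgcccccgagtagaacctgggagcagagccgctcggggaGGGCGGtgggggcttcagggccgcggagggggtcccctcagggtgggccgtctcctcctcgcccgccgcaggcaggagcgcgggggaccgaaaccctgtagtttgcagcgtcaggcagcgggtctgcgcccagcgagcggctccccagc

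Genes with the most similar profiles were found by the root mean square difference between log2 CPM centred on the mean of the 6 libraries, over 10604 genes with a mean of at least 5 CPM. Closest to *PROM1* were *LGI1* (0.54), *NRP2* (0.55), *WNT9B* (0.58), *BCAT1* (0.64) and *NRP1* (0.74). Closest to *CD24* were *TGFA* (0.26), *PIEZO2* (0.37), *CLMN* (0.38), *MEGF6* (0.42) and *SUSD3* (0.47). The measure compares 6 points that share their libraries, and it says nothing of shared control.

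The genes closest to *PROM1* had few or no counts in miR-27a KO. *NRP2*, a neuropilin that binds semaphorins and VEGF, had 482 and 258 counts in Scr, 169 and 1138 in miR-23a KO, against 0 and 0 in miR-27a KO. Its relative *NRP1* had 578 and 465, 200 and 1056, and 3 and 3. *WNT9B*, a Wnt ligand, had 468 and 364, 721 and 933, and 3 and 2. These genes were chosen for their profile over the same libraries, so no test is given. *NRP2* was at least 141-fold lower in miR-27a KO than in Scr, while summed counts gave a ratio of Scr to miR-27a KO of 197 for *NRP1* (95% counting interval 90.3 to 539) and 189 for *WNT9B* (80.6 to 583).

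The genes closest to *CD24* were low in miR-23a KO. *TGFA*, a ligand of the EGF receptor, had 377 and 389 counts in Scr, 20 and 51 in miR-23a KO, with 845 and 848 in miR-27a KO. As a description, its log2 fold change against Scr was 0.96 (SE 0.10) in miR-27a KO and -3.52 (SE 0.62) in miR-23a KO, where it was -4.10 without replicate 2.

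**Figure D2:**
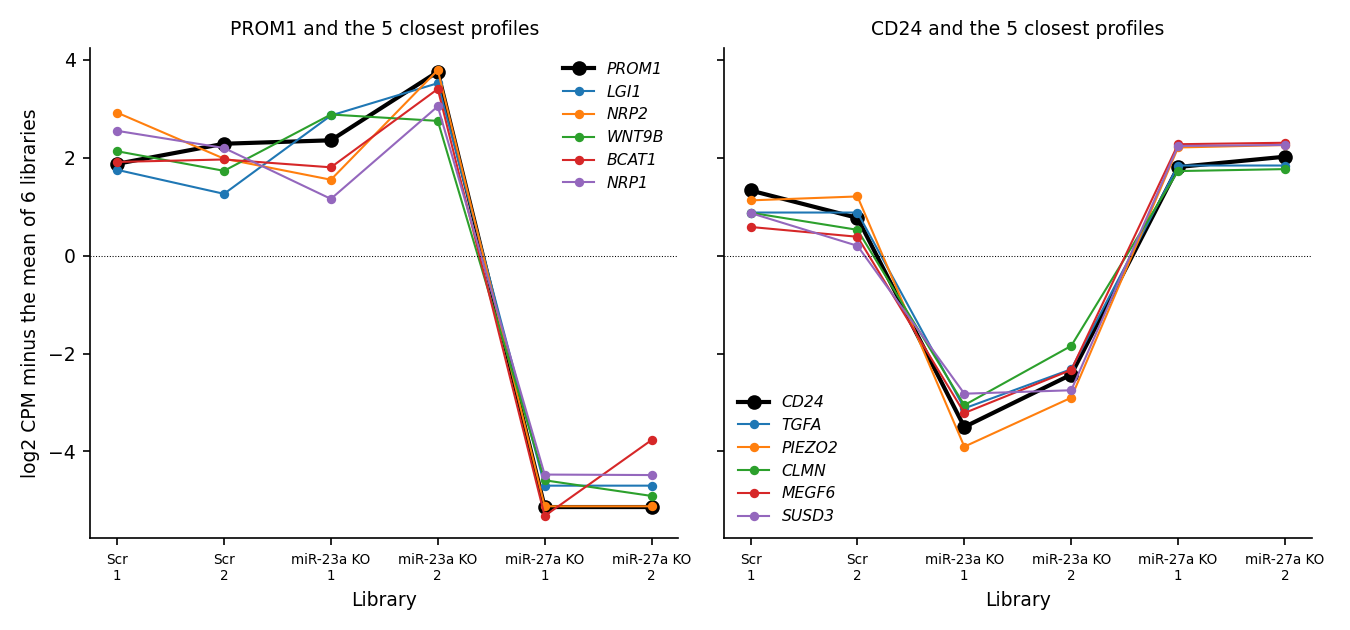
Log2 CPM of *PROM1* and *CD24* (thick lines) and of the 5 genes closest to each, with the mean of the 6 libraries subtracted. Lines only join the libraries, which have no order within a group, and the left profiles drop in miR-27a KO and the right ones in miR-23a KO.

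*CD44* (gene 960), the receptor of hyaluronan, had 4 and 4 counts in Scr, 6 and 8 in miR-23a KO, against 2 and 2 in miR-27a KO. Its length-scaled level exceeded 10.9% of the genes detected in Scr, and 14.5% and 7.23% in the miR-23a and miR-27a knockouts. Between Scr and miR-27a KO no difference was detectable at this depth, with a ratio of 2.27 and a counting interval (95%, exact) of 0.608 to 10.3. The ratio of miR-23a KO to miR-27a KO was 3.65 (1.15 to 15.2). Low counts need not mean absence of a transcript: *CD47*, a broadly expressed surface protein, was listed at 0 to 5 counts and *NOTCH2* at 2 to 10 in the same libraries. *CD44* had a miR-23a-3p site in 1 of 11 annotated 3′UTRs, at position 843 of 942 (chr11:35223221-35223227, plus strand).

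*EPCAM* (gene 4072, chromosome 2, 47345158 to 47387601) encodes an adhesion protein of epithelia that marks fetal hepatoblasts and bile ducts. It had 1232 and 1585 counts in Scr, 898 and 1437 in miR-23a KO, with 3949 and 4071 in miR-27a KO. In CPM these were 85.6 and 107, 68.3 and 77.3, and 239 and 245. In CPM, both miR-27a KO libraries lay above, and both miR-23a KO libraries below, the Scr libraries. On the length-scaled level, miR-23a KO replicate 2 at 145 lay between the Scr libraries, at 119 and 160. The log2 fold change was 1.33 (SE 0.12) in miR-27a KO against Scr. It was -0.33 (SE 0.43) in miR-23a KO against Scr, less than its error. Between the knockouts it was -1.73 (SE 0.33).

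Near *EPCAM*, the mismatch repair gene *MSH6*, chosen after its values were seen, was called higher in miR-27a KO against Scr, with a log2 fold change of 0.81 (SE 0.13, adjusted p 0.0224, edgeR quasi-likelihood with Benjamini-Hochberg). *CALM2* and *TTC7A*, on the other side of *EPCAM* and also chosen after their values were seen, were at 0.28 and -0.00. *EPCAM* had no seed site of either miRNA in its 3 annotated 3′UTRs.

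*KRT19* (gene 3880, chromosome 17), a keratin of bile duct cells, had 207 and 218 CPM in Scr, 224 and 98.9 in miR-23a KO, against 174 and 171 in miR-27a KO. Both miR-27a KO libraries lay below Scr by a log2 fold change of -0.31 (SE 0.08), which was -0.06 with GC content and length corrected. The miR-23a KO libraries lay 2.27-fold apart in CPM, to either side of Scr, at -0.36 (SE 0.50), or -1.06 without replicate 1 and 0.08 without replicate 2. On the length-scaled level both lay below Scr, at 288 and 229 against 357 and 405. Processed pseudogenes of *KRT19* make the assignment of its reads uncertain.

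*SOX9* (gene 6662, chromosome 17, 72121020 to 72126420), a transcription factor of bile duct and progenitor cells, had 161 and 125 CPM in Scr, 39.7 and 71.5 in miR-23a KO, with 145 and 149 in miR-27a KO. The miR-23a KO libraries lay below all others, and miR-27a KO overlapped Scr in CPM. Against Scr, miR-23a KO stood at a log2 fold change of -1.27 (SE 0.50), or -1.85 when its replicate 2 was left out and -0.95 when its replicate 1 was. It was 0.04 (SE 0.14) in miR-27a KO against Scr and -1.40 (SE 0.42) between the knockouts.

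*ALDH1A1* (gene 216, chromosome 9, 72900662 to 73080442 on the minus strand) encodes an aldehyde dehydrogenase that makes retinoic acid, and the activity of such enzymes is used to sort stem-like tumor cells. Scr libraries had 3353 and 3800 counts, with 2421 and 5503 in miR-23a KO, against 10521 and 10444 in miR-27a KO. In CPM these were 233 and 257, 184 and 296, and 637 and 629. The miR-27a KO libraries stood above the other 4, and the miR-23a KO libraries lay to either side of Scr. The log2 fold change was 1.37 (SE 0.09) in miR-27a KO against Scr, with a range of 1.30 to 1.44 when each library was left out. In miR-23a KO against Scr it was 0.05 (SE 0.48), with a sign that changed in 5 of 8 alternatives.

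The *ALDH1A1* promoter (chr9:72953004-72953303, minus strand, RefSeq, GRCh38.p14) is shown because this marker had the highest level in miR-27a KO. Capitals mark a CCAAT box 74 bases and an octamer 58 bases before the start, which do not overlap. It has 7 CG pairs, where the median promoter has 14. A miR-23a-3p site lies in 1 of 2 annotated 3′UTRs, at position 193 of 546 (chr9:72901009-72901015, minus strand), in capitals below.
ALDH1A1 promoter: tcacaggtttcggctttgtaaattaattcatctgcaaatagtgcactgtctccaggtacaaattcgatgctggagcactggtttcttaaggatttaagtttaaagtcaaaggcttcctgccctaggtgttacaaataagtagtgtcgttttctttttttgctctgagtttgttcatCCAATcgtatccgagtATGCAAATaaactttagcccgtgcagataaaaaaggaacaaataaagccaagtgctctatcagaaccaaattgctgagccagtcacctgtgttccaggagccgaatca
ALDH1A1 miR-23a-3p site: tttgccttctgaAATGTGAcccccaagtcc

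*ANPEP* (gene 290, chromosome 15) encodes aminopeptidase N, or CD13, a peptidase of the hepatocyte canalicular membrane. It had 347 and 342 CPM in Scr, 356 and 181 in miR-23a KO, with 312 and 303 in miR-27a KO. In CPM the miR-27a KO libraries lay just below Scr, at a log2 fold change of -0.17 (SE 0.08), which was 0.02 with GC content and length corrected. miR-23a KO replicate 2 was lowest in CPM. On the length-scaled level both miR-23a KO libraries, at 173 and 158, lay below the others, which ran from 221 to 241. A miR-23a-3p site lies in 1 of 3 annotated 3′UTRs of *ANPEP*, within coding sequence of another transcript.

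*ICAM1* (gene 3383, chromosome 19) encodes the ligand of leukocyte integrins and is induced by NF-kB. It had 377 and 213 CPM in Scr, 271 and 194 in miR-23a KO, against 270 and 256 in miR-27a KO. The Scr libraries lay 1.77-fold apart and overlapped both knockouts. Its log2 fold changes of -0.28 (SE 0.48) and -0.17 (SE 0.26) against Scr were below their errors. Neither *ICAM1* nor *SOX9* had a seed site of either miRNA, and *KRT19* had none in its 1 annotated 3′UTR.

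**Figure D3:**
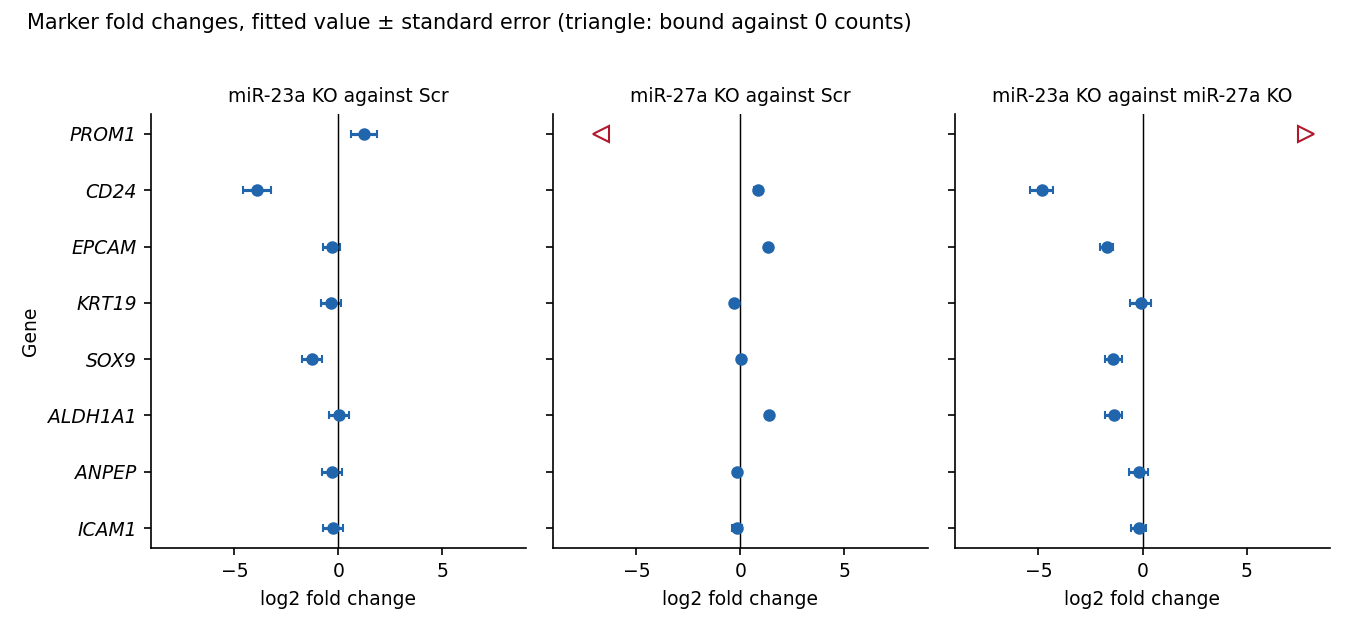
Fitted log2 fold change (points) with standard error (bars) of the 8 markers tested, in the 3 comparisons named above the panels. Red triangles are bounds for *PROM1* against 0 counts, 105-fold lower and 230-fold higher, and *CD24* lies at -3.92 for miR-23a KO and 0.84 for miR-27a KO, both against Scr.

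Other genes of these cell states were read from 7 lists: other liver progenitor and stem genes, biliary markers, hepatocyte markers, fibroblast and stellate markers, leukocyte and endothelial markers, paralogs of the markers, and their regulators and partners. Together 117 genes besides the markers had a row. Of 88 tested in miR-27a KO against Scr, 15 were called higher and 12 lower, which is 30.7% beside 10.3% of all genes, and the lists were drawn up with earlier results of these data known. Those 27 became 43 without Scr replicate 2, 15 and 14 without miR-27a KO replicate 1 and 2, and 6 in the fit of all 6 libraries. In miR-23a KO against Scr, edgeR called 0 of 88, with 10 at an unadjusted p under 0.05, while DESeq2 called 2 and limma 0. Between the knockouts it called 0 of 87, with 22 at an unadjusted p under 0.05, while DESeq2 called 16 and limma 1. Without miR-23a KO replicate 1 or 2 these counts were 11 and 24 against Scr and 48 and 67 against miR-27a KO, and they were 5 and 5 without miR-27a KO replicate 1 or 2.

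Among 17 other progenitor and stem genes tested in miR-27a KO, 3 were higher and 4 lower, with a median log2 fold change of -0.23. *AFP*, the fetal albumin made by hepatoblasts, had 37239 and 57930 counts in Scr, 50060 and 121061 in miR-23a KO, with 3046 and 3184 in miR-27a KO. It fell by 4.11 on the log2 scale in miR-27a KO (SE 0.23, adjusted p 0.00262, edgeR quasi-likelihood with Benjamini-Hochberg). *DLK1*, a surface protein of hepatoblasts, went from 4771 and 4006 counts in Scr to 11 and 15 (adjusted p 0.000522, same edgeR test), and *SOX4*, a transcription factor of progenitors, from 833 and 636 to 52 and 47 (adjusted p 0.00237, same test). *EPCAM* and *ALDH1A1* were higher in these same libraries.

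The genes called higher in that list, *LGR5*, *ITGA6* and *CDH1*, and *CD9* as the fourth called lower, were named after their values were seen, and each lost its call in 1 to 3 of 8 alternatives. *LGR5*, a Wnt-linked stem cell receptor, had 29.5 and 32.2 CPM in Scr and 51.1 and 55.2 in miR-27a KO. *CDH1*, which encodes E-cadherin, had 64.0 and 88.6 CPM in Scr, 21.8 and 11.1 in miR-23a KO, against 137 and 134 in miR-27a KO, the order that *CD24* and *EPCAM* also had in CPM. *GPC3*, a heparan sulfate proteoglycan with the highest mean CPM of the list over the 6 libraries, though *AFP* was above it in miR-23a KO (5161 against 2263), had 4189 and 3554 CPM in Scr, 2077 and 2448 in miR-23a KO, with 4024 and 4012 in miR-27a KO.

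Biliary markers bear on *KRT19*, *SOX9* and *EPCAM*, which belong to that list and were left out of its count. Of 8 others tested in miR-27a KO, 3 were higher, *SPP1* and *ANXA4* among them, and 1 lower (*MUC1*), of which *ANXA4* and *MUC1* were named after their values were seen and were each called in 4 of 8 alternatives. The list summed to 1640 and 1421 CPM in Scr, 1239 and 1315 in miR-23a KO, against 2742 and 2764 in miR-27a KO, markers included. *SPP1*, osteopontin, had the highest mean CPM of the list and gave 1267 and 1291 CPM of the sum in miR-27a KO, and 473 and 186 in Scr. *SPP1* was higher by a log2 fold change of 1.95 (SE 0.43, adjusted p 0.0427, edgeR, Benjamini-Hochberg), or 2.78 without Scr replicate 1. The call was held in 5 of 8 alternatives, with adjusted p of 0.00135 to 0.547 over edgeR, DESeq2 and limma. The defining biliary genes *KRT7*, *CFTR* and *SCTR* had 10 counts or fewer in each library. *KRT7* is also among the paralogs, and *SPP1* and *JAG1* among the regulators.

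Hepatocyte markers were abundant in all 6 libraries. The 19 genes summed to between 30649 and 38617 CPM in the 6 libraries, with *SERPINA1* the gene of highest mean over them at 4635 to 12762 CPM, while *CYP3A4*, *CYP2E1* and *TDO2* had 10 counts or fewer in each. In miR-27a KO, 2 of 16 tested were higher (*FABP1* and *TF*, named after their values were seen) and 2 lower. The call of *FABP1* was lost in 1 of 8 alternatives and that of *TF* in 3. *ALB*, the gene of albumin, had 10419 and 15110 CPM in Scr, 7898 and 14601 in miR-23a KO, against 2087 and 2151 in miR-27a KO. Its mean was above that of *SERPINA1* in Scr (12764 against 10882) and in miR-23a KO (11250 against 8206). *ALB* fell by 2.59 on the log2 scale in miR-27a KO (SE 0.20, adjusted p 0.00538) and *FGB* by 2.05 (SE 0.32, adjusted p 0.0212), both by edgeR quasi-likelihood with Benjamini-Hochberg adjustment. Both calls were lost in the fit of all 6 libraries (adjusted p 0.105 and 0.132, edgeR), the highest of 8 alternatives that went down to 9.36e-47 and 1.29e-08.

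Markers of other cell types were low, apart from a few genes. Of the fibroblast and stellate list, 7 of 12 genes had a row and summed to between 137 and 256 CPM, mostly *ACTA2*, and *COL1A1*, *PDGFRA* and *LRAT* had 10 counts or fewer in each library. *PDGFRB* was the 1 gene of 4 called in miR-27a KO, at a log2 fold change of -2.12 (SE 0.30, adjusted p 0.0166, edgeR, Benjamini-Hochberg). The call was lost in the fit of all 6 libraries (adjusted p 0.14 by edgeR, within 3.11e-08 to 0.14 over the alternatives). Of the leukocyte and endothelial list, *PTPRC*, *CD3E* and *STAB2* had 10 counts or fewer in each library. Its sum of 547 and 569 CPM in Scr, 267 and 261 in miR-23a KO, with 1609 and 1671 in miR-27a KO included *LYZ*, the gene of lysozyme, at 377 and 409, 127 and 184, and 1496 and 1560 CPM. All 6 libraries came from a single cell line, HepG2, and the presence of other cell types was not tested. *LYZ* was the 1 gene of 4 called, at a log2 fold change of 1.96 (SE 0.09, adjusted p 0.00204, edgeR, Benjamini-Hochberg), and was lost in the fit of all 6 libraries (0.0884, within 4.9e-60 to 0.0884).

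Of the paralogs of the markers, 18 had a row. Of 11 tested in miR-27a KO, 1 was called: *LYVE1*, a hyaluronan receptor related to *CD44*, with 140 and 188 counts in Scr, 199 and 156 in miR-23a KO, against 0 and 0 in miR-27a KO. It was at least 61.9-fold lower than in Scr (adjusted p 0.00669, edgeR quasi-likelihood with Benjamini-Hochberg). *KRT8*, the paralog with the highest mean CPM, had a log2 fold change of -0.12 (SE 0.09) in miR-27a KO. *PROM2*, *KRT20*, *ALDH1A2* and *ALDH1A3* had 10 counts or fewer in each library.

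Regulators and partners of the markers numbered 30 tested in miR-27a KO, with 7 higher and 3 lower and a median of 0.11. *ESRP1*, a splicing factor that acts on *CD44* transcripts, had 26 and 40 counts in Scr, 1 and 1 in miR-23a KO, with 299 and 302 in miR-27a KO. *TSPAN8*, a tetraspanin that associates with EpCAM, had 59 and 84, 13 and 9, and 329 and 362. Both had the order of *CD24* and *EPCAM* in CPM, and both were called higher in miR-27a KO, *ESRP1* at 8.05 times its mean CPM in Scr (adjusted p 0.00669) and *TSPAN8* at a log2 fold change of 2.09 (SE 0.22, adjusted p 0.00934), both by edgeR quasi-likelihood with Benjamini-Hochberg. The fit of all 6 libraries lost the call of *TSPAN8* (adjusted p 0.163, edgeR), within 1.5e-09 to 0.163 over 8 alternatives.

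Genes of the Notch pathway, which governs *SOX9* in bile duct cells, differed in direction. *NOTCH1*, named after its values were seen, had 9.04 and 7.03 CPM in Scr and 19.7 and 20.6 in miR-27a KO, and was called higher, in the edgeR fit and in 7 of 8 alternatives. *HES1*, a target of Notch, had 166 and 145 counts in Scr, 132 and 181 in miR-23a KO, against 8 and 2 in miR-27a KO, and was called lower (adjusted p 0.00828, edgeR quasi-likelihood with Benjamini-Hochberg). Its log2 fold change of -5.11 was -6.37 without miR-27a KO replicate 1 and -4.43 without replicate 2. *HAS3*, a hyaluronan synthase, had 100 and 78 counts in Scr and 26 and 24 in miR-27a KO (adjusted p 0.021, same edgeR test), a call lost without miR-27a KO replicate 1 (0.114) or 2 (0.153) and in the fit of all 6 libraries (0.286, within 0.00117 to 0.286 over the alternatives). *SOX9* itself lay at 0.04 (SE 0.14) in that comparison.

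**Figure D4:**
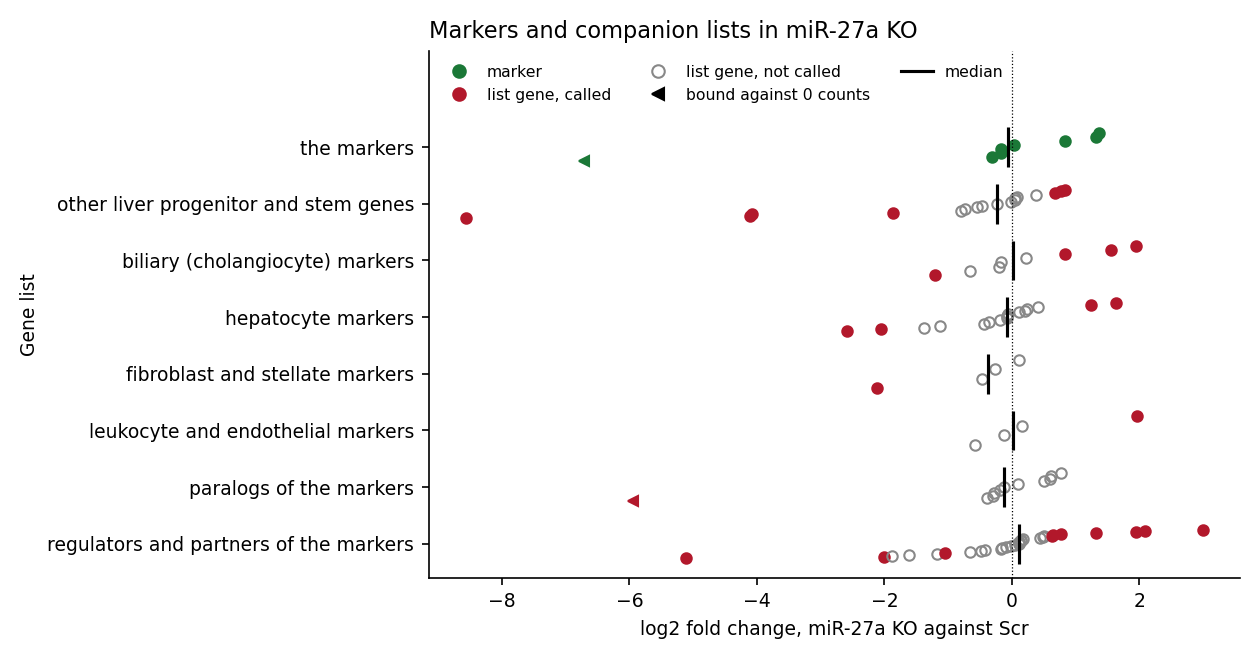
Log2 fold change in miR-27a KO against Scr of the 8 markers and of the genes tested in the 7 lists. Green points are markers, red points were called, open points were not, triangles are bounds against 0 counts, black bars are medians, and the lowest points outside the markers are *DLK1*, *LYVE1*, *HES1*, *AFP* and *SOX4*.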

How the data were processed

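RNA-seq of 6 HepG2 libraries was analysed from the gene table the authors deposited, whose columns are named FPKM. The deposited values were taken for expected counts because totals differ between libraries, from 14405250 to 16515261, and 42.6% to 51% of values, zeros included, were exactly whole. Per the labels, HISAT, StringTie, Cufflinks and GATK were used, while build and counting tool are not given in the sources used here. The labels name a TruSeq RNA kit and the methods a stranded mRNA kit, so overlapping and antisense genes cannot be told apart. Expected counts were rounded.

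Each pair of groups was fitted by itself in edgeR 4.0.16 (R 4.3.3) with filterByExpr, TMM and the quasi-likelihood test. Calls needed a fold change over 1.5 and a Benjamini-Hochberg adjusted p under 0.05. Alternatives were DESeq2 1.42.0, limma 3.58.1, RLE scaling, no filter, all 6 libraries in 1 fit, a replicate block, loess correction of GC content and length (span 0.5), stricter thresholds and leaving out each library. A library left alone in its group was assumed to vary like the other group. Groups at 0 were set to 3 counts per library. Lengths came from GENCODE release 29. Log2 CPM used a prior count of 2. The SE of edgeR fits was derived from the F statistic and was not estimated apart from the test.

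The markers and lists were chosen with earlier results of these data known. Genes named were the markers, up to 12 called list genes per comparison by size of change, the gene of highest mean CPM of each list, and the 5 genes closest to *PROM1* and to *CD24*. Others named were chosen after their values were seen. *THY1*, *TWIST1* and the genes of the edited miRNAs were not analysed here.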

Additional observations from a re-analysis of the deposited data

Results flagged for a closer look

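In CPM, several genes lay on opposite sides of both Scr libraries in the knockouts, with both miR-23a KO libraries to one direction and both miR-27a KO libraries to the other. Of 13840 genes with distinct symbols tested between the knockouts, 859 (6.21%) did so. Among the markers these were *PROM1*, higher by at least 230.0-fold in miR-23a KO than in miR-27a KO, *CD24*, at a log2 fold change of -4.85, and *EPCAM*, at -1.73. For *PROM1*, miR-23a KO replicate 1 stood just above Scr, at 22.7 against 21.7 CPM. On the length-scaled level that library, and miR-23a KO replicate 2 for *EPCAM*, lay between the Scr libraries. Without miR-23a KO replicate 2, *CD24* was at -5.55 and *PROM1* at least 126-fold higher, or 334-fold without replicate 1.

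The difference between the knockouts was tested by edgeR quasi-likelihood with Benjamini-Hochberg adjustment, which called 0 of 13841 genes, with 1207 at a fold change over 1.5 and an unadjusted p under 0.05, while DESeq2 called 477 and limma 21. *ESRP1* was at -7.99 (adjusted p 0.0803, edgeR), and its summed counts gave 288-fold with a counting interval of 79.4 to 2383. *TSPAN8* was at -4.83 (0.0961, edgeR adjusted p) and *LYZ* at -3.29 (0.101, edgeR adjusted p). These 3 genes were flagged for this difference in the same libraries, so their adjusted p is a description only. With 1 library left out, the log2 fold change ran from -8.22 to -7.75 for *ESRP1*. It ran from -5.41 to -4.38 for *TSPAN8* and from -3.58 to -3.06 for *LYZ*.

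Of the genes closest to *PROM1*, *LGI1* was higher by at least 171.0-fold in miR-23a KO than in miR-27a KO and *WNT9B* was at 8.38, or 345-fold by summed counts (148 to 1065). Of those closest to *CD24*, *TGFA* was at -4.56, *PIEZO2* at -5.96 and *MEGF6* at -5.21, with *CLMN* at -4.10 and *SUSD3* at -5.23. Without miR-23a KO replicate 2, *PIEZO2* was at -6.92, *MEGF6* at -5.87 and *CLMN* at -4.87. These genes were chosen for their profile over the same libraries, so no test is given. What sets these differences was not tested.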

How the results depend on the processing

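Of the log2 fold changes called for markers and for genes named by the stated rule, 0 changed sign under another setting or with 1 library left out. Several named genes that were not called in miR-23a KO against Scr did change sign there with 1 library left out. Without miR-23a KO replicate 2, for example, *NRP1* went from 0.12 to -1.23 and *NRP2* from 0.65 to -0.98. In the same fit *BCAT1* went from 0.98 to -0.14 and *SPP1* from 0.14 to -1.22. Of the markers' log2 fold changes, 181 of 192 moved by less than their spread under other settings and 73 of 96 with 1 library left out. The 27 list genes called in miR-27a KO against Scr had 216 fits under 8 other settings, of which 41 lost the call, and 6 of the 27 were called in each setting. With 1 library left out, 27 of 108 fits lost it, and 14 of the 27 genes were called in each. List genes not called gained 14 calls in 487 fits under other settings in that comparison, 4 in 704 for miR-23a KO against Scr and 61 in 696 between the knockouts. With 1 library left out these gains were 27 in 244, 35 in 352 and 123 in 348.

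In miR-23a KO against Scr, where 0 genes were called, DESeq2 called 63 genes, 1 marker and 2 list genes, no filter 10 genes, the fit of all 6 libraries 3, and the GC and length correction 8 genes and 1 marker. With 1 library left out, genes called ranged from 4 to 2630, markers from 0 to 3, list genes from 0 to 24 and the markers' median from -0.72 to -0.27.

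In miR-27a KO against Scr, where 1418 genes were called, no filter called 892 genes, with more genes tested, and DESeq2 1616 genes, 4 markers and 32 list genes. The fit of all 6 libraries called 64 genes, 1 marker and 6 list genes, and an adjusted p under 0.001 left 4, 0 and 1. With 1 library left out the ranges were 334 to 3716 genes, 3 to 4 markers, 14 to 43 list genes and a median of -0.15 to 0.28.

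Between the knockouts, where 0 genes were called, DESeq2 called 477 genes, 3 markers and 16 list genes, the fit of all 6 libraries 218, 3 and 11, the GC and length correction 135, 2 and 5, and limma 21, 1 and 1. Without a filter the markers' median was -0.21, since *CD44* was then included. With 1 library left out the ranges were 72 to 7303 genes, 2 to 7 markers, 5 to 67 list genes and a median of -0.93 to -0.79.

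The replicate numbers share only a number: deviations of same-numbered libraries correlated at 0.196, 0.0175 and 0.0243 over 12808 genes. With a replicate block, 69 genes, 1 marker and 2 list genes were called in miR-23a KO against Scr, 1693 genes, 4 markers and 32 list genes in miR-27a KO against Scr, and 400 genes, 2 markers and 11 list genes between the knockouts. The block with the GC and length correction called 28 genes and 1 marker, then 1358 genes, 3 markers and 23 list genes, and 785 genes, 2 markers and 17 list genes. The cause of these differences was not tested.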
